A study of Mus musculus with 4 samples.

Results

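*Cxcl12*, *Cxcr4* and *Ackr3* encode a chemokine and its receptors. They were taken by gene name from the deposited transcript counts and make up 3 of the 56884 genes in the gene table. The study applied single-nucleus RNA sequencing to the medial neocortex of mouse embryos at stage E16.5, counted in days of gestation, with 2 control and 2 *Dnmt1* KO libraries. The control embryos were *Sst-Cre/tdTomato*, and the *Dnmt1* KO embryos were *Sst-Cre/tdTomato/Dnmt1 loxP2*, so all 4 libraries carried the Cre driver and the red reporter, and the floxed *Dnmt1* gene set the *Dnmt1* KO libraries apart. Cre is driven by the somatostatin gene, which limits recombination to cells that have expressed *Sst*, whereas the libraries hold nuclei of the whole tissue. The study describes the libraries of a genotype as brains of different animals.

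CXCL12 is a secreted chemokine that binds to heparan sulfate in the extracellular matrix and forms gradients. In the embryonic cortex, it is known to be released by the meninges and by cells of the subventricular zone, and it holds migrating interneurons in their streams and Cajal-Retzius cells at the pial surface. CXCR4 is its G protein-coupled receptor and signals through Gi to Rac and PI3 kinase. ACKR3, formerly CXCR7, is an atypical receptor that recruits beta-arrestin, takes up CXCL12 and thereby keeps CXCR4 from being lost from the membrane.

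On GRCm39, *Cxcl12* (ENSMUSG00000061353.12) lies on the plus strand of chromosome 6 from 117144945 to 117158328, and its canonical transcript has 4 exons. *Cxcr4* (ENSMUSG00000045382.7) lies on the minus strand of chromosome 1 from 128515936 to 128520044 with 2 exons. *Ackr3* (ENSMUSG00000044337.6) lies on the plus strand of chromosome 1 from 90131689 to 90144473 with 2 exons. No other annotated gene overlaps any of them. Levels are compared between classes and libraries within each gene and not between the genes.

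The retained nuclei had 1500 to 60000 transcripts and numbered 4905 to 12064 per library, 29656 in all. Control replicate 2 alone belonged to batch 2, so this batch and this library cannot be told apart, and it was deeper, with a median of 21140 transcripts per nucleus against 12274 to 12401 in the other libraries. Senders and receivers were separated by marker gates that did not use the 3 genes. *Lhx6*/*Gad2* nuclei stand for interneurons of the medial ganglionic eminence (1923 nuclei), and *Adarb2* nuclei, which also needed *Gad2*, for interneurons of the caudal ganglionic eminence (1017). *Eomes* nuclei stand for intermediate progenitors (1456), *Pax6*/*Slc1a3* nuclei for radial glia (3830), and *Trp73*/*Reln* nuclei for Cajal-Retzius cells (369). *Col1a1*/*Col1a2* nuclei stand for meningeal fibroblasts (137) and *Flt1* nuclei for endothelial cells (438). Nuclei that passed several of these gates were kept apart, and *Neurod2*/*Neurod6* nuclei outside all gates, called projection neurons here, served as the common reference (9909).

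Markers that no gate used were then compared between each class and all other retained nuclei, with a ratio of 1.5 as the limit. All 10 interneuron markers passed in *Lhx6*/*Gad2* nuclei, all 10 Cajal-Retzius markers in *Trp73*/*Reln* nuclei, all 10 radial glia markers in *Pax6*/*Slc1a3* nuclei, all 10 fibroblast markers in *Col1a1*/*Col1a2* nuclei and 8 of 10 progenitor markers in *Eomes* nuclei. Markers of other types passed in these classes as well. In *Col1a1*/*Col1a2* nuclei, 4 of 6 mural, 3 of 10 endothelial and 3 of 10 Cajal-Retzius markers passed. In both *Lhx6*/*Gad2* and *Pax6*/*Slc1a3* nuclei, 4 of 10 markers of the caudal eminence passed. Of 8 projection neuron markers, 3 passed in *Trp73*/*Reln* and 2 in *Eomes* nuclei. Of the projection neuron markers, 6 of 8 passed in their class. In *Adarb2* nuclei, 8 of 10 markers of the caudal and 7 of 10 of the medial eminence passed. The medial and caudal lists share *Dlx1*, *Gad1* and *Dlx6os1*, so their counts do not fully separate the eminences. In *Flt1* nuclei, all 10 endothelial markers passed, but so did all 6 mural markers and 4 of 10 fibroblast markers. The gated classes are therefore named by their gates.

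Among classes present in all libraries, the ligand *Cxcl12* was highest in *Trp73*/*Reln* and *Flt1* nuclei, followed by *Eomes* nuclei. In *Trp73*/*Reln* nuclei, its level in CPM (counts scaled to the same total of transcripts in every class and library) was 66.1 in *Dnmt1* KO replicate 1 and 38.0 in *Dnmt1* KO replicate 2, beside 46.8 in the first and 59.6 in the second control library. Levels below keep this order. In *Flt1* nuclei, they were 63.8, 66.4, 57.1 and 9.70 CPM. Thus 3 of the 4 *Flt1* libraries lay close together, and control replicate 2 lay apart with 10 transcripts in 4 nuclei. *Eomes* nuclei reached 8.16 and 16.0 CPM in the *Dnmt1* KO and 22.7 and 29.3 CPM in the control libraries. *Lhx6*/*Gad2* nuclei, the receivers, contained little ligand, with 0.682, 1.84, 0.334 and 0.480 CPM.

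**Figure D1:**
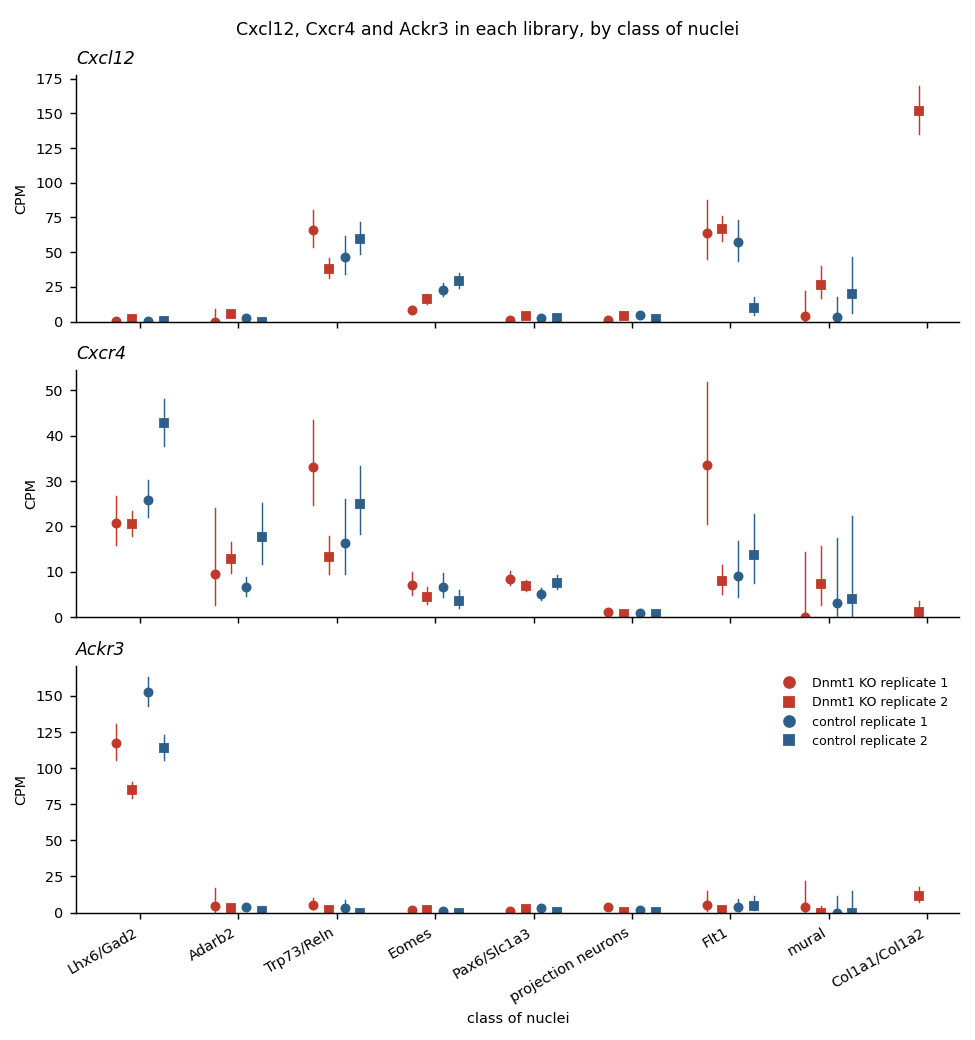
Levels of *Cxcl12*, *Cxcr4* and *Ackr3* in CPM by marker-gated class, with 1 point per library of at least 10 nuclei and exact Poisson 95% intervals that cover counting error only. The ligand reaches 151 CPM in the *Col1a1*/*Col1a2* nuclei of 1 library and is otherwise highest in *Trp73*/*Reln* and *Flt1* nuclei, and *Ackr3* in *Lhx6*/*Gad2* nuclei lies apart from its level in all other classes.

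Against projection neurons, *Cxcl12* was 16.4-fold higher in *Trp73*/*Reln* nuclei (log2 difference 4.03, SE 0.44, adjusted p = 6.44e-08), where 15.2% of 17519 tested genes were called higher. It was 12.3-fold higher in *Flt1* nuclei (3.62, SE 0.45, adjusted p = 1.87e-07, with 27.2% of genes called higher) and 5.25-fold higher in *Eomes* nuclei (2.39, SE 0.42, adjusted p = 5.22e-05, with 19.4% called higher). These tests used edgeR with the library as a block, and a call is an adjusted p under 0.05. In projection neurons, the reference, each of the 3 genes lay below its level in barcodes of at most 99 transcripts in every library, so the folds against this class rest on a level that is not read as expression. *Eomes* nuclei were also higher than *Lhx6*/*Gad2* nuclei (4.05, SE 0.65, adjusted p = 1.56e-05), with 20.6% of genes called higher, and than *Pax6*/*Slc1a3* nuclei (3.08, SE 0.48, adjusted p = 1.16e-05), with 18.8% called higher. In both of these classes, too, *Cxcl12* lay below its level in the barcodes of at most 99 transcripts in every library, so no fold is given. The last difference shrank to 1.42 on the log2 scale (adjusted p = 0.00784) when nuclei passing several gates were kept. *Lhx6*/*Gad2* nuclei were below projection neurons by a difference of -1.66 that missed the threshold (adjusted p = 0.0917), but passed it with DESeq2 (-1.85, adjusted p = 0.0279).

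*Col1a1*/*Col1a2* nuclei had the highest *Cxcl12*, but they came almost entirely from 1 library. *Dnmt1* KO replicate 2 contained 135 of these 137 nuclei, control replicate 2 contained 2, and the other libraries contained 0. In *Dnmt1* KO replicate 2, their level was 151 CPM (exact Poisson 95% interval 135 to 170, counting error only), beside 3.96 CPM in the projection neurons of the same library, and 56.3% of the nuclei contained a *Cxcl12* transcript. With 1 library, no test was made. *Cxcl12* over all retained nuclei was 3.81, 10.1, 6.56 and 5.32 CPM, highest in *Dnmt1* KO replicate 2. In this library, 17.2% of the *Cxcl12* transcripts lay in *Col1a1*/*Col1a2* and 29.5% in ungated nuclei. The part of the *Col1a1*/*Col1a2* nuclei in its level was not tested.

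Ordered by the mean over 4 libraries, *Cxcl12* fell from 52.6 ± 12.6 CPM (SD, n = 4) in *Trp73*/*Reln* to 49.3 ± 26.7 in *Flt1*, 19.0 ± 9.05 in *Eomes* and 13.4 ± 11.7 in mural nuclei, which were few (17 to 72 per library). It then fell to 5.79 ± 3.05 in ungated nuclei, 2.98 ± 1.78 in projection neurons, 2.45 ± 1.39 in *Pax6*/*Slc1a3*, 1.97 ± 2.66 in *Adarb2* and 0.834 ± 0.685 in *Lhx6*/*Gad2* nuclei. The ranges of the libraries overlapped between all neighbours in this order. The pooled share of nuclei with the ligand and their mean transcripts differed between classes. In *Flt1* nuclei, 60 of 438 (13.7%) contained *Cxcl12*, with a mean of 5.52 transcripts each. In *Trp73*/*Reln* nuclei, 118 of 369 (32.0%) did, with 3.23 transcripts each. In *Eomes* nuclei, 214 of 1456 (14.7%) did, with 1.62 transcripts each. For comparison, 4.11% of projection neuron nuclei contained a transcript. The *Flt1* ligand therefore came from few nuclei with many transcripts, in a gate that also held mural and fibroblast markers, whose part in the level was not tested.

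The receptor *Cxcr4* had its highest mean in *Lhx6*/*Gad2* nuclei and was also present in *Trp73*/*Reln*, *Flt1*, *Adarb2* and *Pax6*/*Slc1a3* nuclei. In *Lhx6*/*Gad2* nuclei, it reached 20.8 and 20.5 CPM in the *Dnmt1* KO and 25.9 and 42.7 CPM in the control libraries. In *Trp73*/*Reln* nuclei, the levels were 33.0, 13.3, 16.2 and 24.9 CPM, and in *Adarb2* nuclei 9.41, 12.8, 6.57 and 17.6 CPM. *Pax6*/*Slc1a3* nuclei were lower and more even at 8.47, 6.80, 5.00 and 7.56 CPM. Among classes with at least 10 nuclei in every library, projection neurons had the lowest mean, with 0.564 to 1.12 CPM. Of 65 microglia nuclei, 0 contained a transcript. This allows a share of up to 4.62% of nuclei with a detected transcript and sets no limit on the share that expresses the gene, since these nuclei were shallow (medians of 6046 to 12190 transcripts).

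*Cxcr4* exceeded its level in projection neurons in all 6 classes tested. This reference lay below the barcodes of at most 99 transcripts in every library, so the folds against it rest on a level not read as expression. The difference was 35.5-fold in *Lhx6*/*Gad2* (5.15, SE 0.28, adjusted p = 8.77e-13, with 10.4% of genes called higher) and 23.8-fold in *Trp73*/*Reln* nuclei (4.57, SE 0.34, adjusted p = 8.78e-11). It was 14.6-fold in *Adarb2* (3.86, SE 0.35, adjusted p = 9.54e-09, with 8.93% called higher) and 12.95-fold in *Flt1* nuclei (3.69, SE 0.42, adjusted p = 3.72e-08). The progenitors followed, with 6.67-fold in *Pax6*/*Slc1a3* (2.74, SE 0.29, adjusted p = 9.15e-09, with 28.9% called higher) and 5.74-fold in *Eomes* nuclei (2.52, SE 0.36, adjusted p = 2.69e-06). In *Eomes* nuclei, however, the level was below that of the barcodes of at most 99 transcripts in 2 of 4 libraries (4.42 against 4.51 CPM in *Dnmt1* KO replicate 2 and 3.57 against 5.70 CPM in control replicate 2). Between the interneuron classes, *Cxcr4* was 2.44-fold higher in *Lhx6*/*Gad2* than in *Adarb2* nuclei (1.29, SE 0.29, adjusted p = 0.00382, with 4.42% called higher). Without control replicate 1, this last difference was 0.96 (adjusted p = 0.134). In the order of means, 27.5 ± 10.4 CPM in *Lhx6*/*Gad2*, 21.9 ± 8.94 in *Trp73*/*Reln*, 16.0 ± 11.97 in *Flt1*, 11.6 ± 4.73 in *Adarb2* and 6.96 ± 1.47 in *Pax6*/*Slc1a3* nuclei (SD, n = 4), the ranges of neighbouring classes overlapped.

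*Ackr3* was concentrated in *Lhx6*/*Gad2* nuclei, with 117 and 84.8 CPM in the *Dnmt1* KO and 153 and 114 CPM in the control libraries. The next class with nuclei in all libraries, *Flt1*, had 5.04, 1.51, 3.63 and 4.85 CPM, and *Adarb2* nuclei had 4.70, 3.15, 4.17 and 1.21 CPM. Barcodes of at most 99 transcripts had 3.90, 6.67, 8.51 and 7.76 CPM. Both classes lay below them in all libraries but *Dnmt1* KO replicate 1 and are not read as expression there. *Col1a1*/*Col1a2* nuclei of *Dnmt1* KO replicate 2 had 11.6 CPM (23 transcripts). The mean of 117 ± 27.8 CPM in *Lhx6*/*Gad2* nuclei (SD, n = 4) was the only position in the order of classes present in all libraries that did not overlap with its neighbour, 3.76 ± 1.62 CPM in *Flt1* nuclei. The fitted difference was 6.38 against projection neurons (SE 0.37, adjusted p = 1.70e-12) and 5.25 against *Adarb2* nuclei (SE 0.47, adjusted p = 3.00e-08). Both references lay below the barcodes of at most 99 transcripts in most or all libraries, so no fold is given. Against *Adarb2* nuclei, the value was 2.41 (adjusted p = 0.000239) with nuclei of several gates kept, which places nuclei that pass both gates in both classes. In *Eomes* nuclei, the sender class, *Ackr3* was lower than in *Lhx6*/*Gad2* nuclei (-6.97, adjusted p = 1.84e-11), where 20.1% of genes were called lower. It was at 0 to 1.66 CPM there, below the barcodes of at most 99 transcripts, so no fold is given. *Cxcr4* was lower as well in the same contrast (-2.63, adjusted p = 5.66e-08). Against projection neurons, *Ackr3* passed the threshold in none of the other 5 classes by edgeR or DESeq2, and none of these had an unadjusted p under 0.05. With nuclei of several gates kept, *Ackr3* passed in *Adarb2* (3.67), *Eomes* (1.21) and *Pax6*/*Slc1a3* nuclei (1.11), and with no low-count filter in *Adarb2* nuclei (1.07).

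Of 4346 *Ackr3* transcripts in retained nuclei, 66.6% lay in *Lhx6*/*Gad2* nuclei, 14.5% in nuclei of several gates and 8.19% in ungated nuclei. Of 2276 *Cxcr4* transcripts, 31.0% lay in *Lhx6*/*Gad2* and 17.2% in *Pax6*/*Slc1a3* nuclei, the most numerous gated class, and in *Dnmt1* KO replicate 1 the order was turned (13.9% against 26.7%). Of 3293 *Cxcl12* transcripts, 1748 of them from *Dnmt1* KO replicate 2, 22.3% lay in ungated nuclei and 17.3% in projection neurons, classes with a low level and many nuclei, against 11.6% in *Trp73*/*Reln*, 10.5% in *Eomes* and 10.1% in *Flt1* nuclei. This order differed between libraries, with 11.1%, 29.5%, 19.9% and 9.33% in ungated against 35.5%, 6.86%, 7.45% and 18.3% in *Trp73*/*Reln* nuclei. Only 0.820% of the ligand lay in *Lhx6*/*Gad2* nuclei, with 0.697%, 1.14%, 0.304% and 0.500% by library. Barcodes of at most 99 transcripts, too few to be counted as nuclei, contained 5.23 to 10.8 CPM of *Cxcl12*, 2.52 to 5.70 CPM of *Cxcr4* and 3.90 to 8.51 CPM of *Ackr3*. *Cxcl12* in projection neurons and *Pax6*/*Slc1a3* nuclei lay below the level of these barcodes in each library, as did *Ackr3* in *Eomes* nuclei. *Cxcr4* and *Ackr3* in projection neurons did so as well. Low values of this kind are not read as expression.

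**Figure D2:**
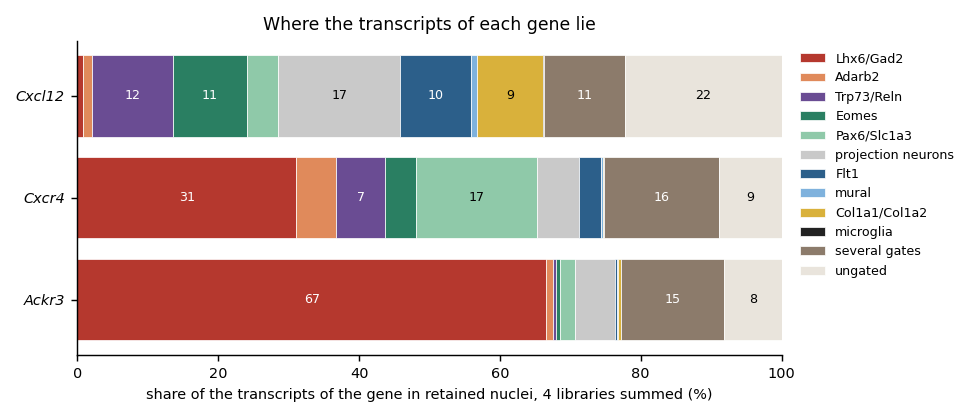
Share in percent of all retained transcripts of each gene that lies in each class, summed over the 4 libraries. *Ackr3* is dominated by *Lhx6*/*Gad2* nuclei (66.6%), *Cxcr4* is divided among interneurons and progenitors, and *Cxcl12* is spread over many classes.

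Within *Lhx6*/*Gad2* nuclei, the receptors were detected together in part. Of 1923 nuclei, 504 (26.2%) contained *Cxcr4*, 1171 (60.9%) contained *Ackr3* and 349 contained both. Projection neurons, at a median of 14892 to 24613.5 transcripts per nucleus against 10028 to 16011, contained *Cxcr4* in 1.23% of nuclei, so the receptor share was higher in the shallower class. Nuclei with *Cxcr4* contained *Ackr3* in 62.7%, 56.4%, 76.8% and 80.6% of cases, in the same order of libraries. Nuclei without *Cxcr4* did so in 59.8%, 51.9%, 65.7% and 62.1%. The share was thus higher with *Cxcr4* in each library. In *Dnmt1* KO replicate 2, nuclei with *Cxcr4*, with and without *Ackr3*, had median depths of 10768 and 11203 transcripts. Those without *Cxcr4* had 9396 and 10315. In control replicate 1, the medians were 11115.5 and 12304.5 against 10082 and 9710. In the other libraries, the medians of nuclei with and without *Cxcr4* interleaved. The part of depth in this difference of shares was not tested.

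*Trp73*/*Reln* nuclei held both the ligand and its receptor. *Cxcr4* was detected in 41.7%, 27.5%, 31.6% and 69.6% of the nuclei with *Cxcl12*, and in 32.7%, 19.8%, 22.6% and 19.0% of those without, so the share was higher with the ligand in every library. These nuclei were also deeper in every library, with medians of 20281, 23293.5, 21206 and 36202 transcripts against 16046, 16255.5, 17201 and 26118. The part of depth in this difference was not tested. In all, 48 of the 118 *Trp73*/*Reln* nuclei with *Cxcl12* contained *Cxcr4*.

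Nuclei that passed a pair of gates were looked at apart from the classes. Nuclei with both the *Eomes* and the *Pax6*/*Slc1a3* gate (240 to 341 per library) contained 1.63, 8.22, 7.21 and 12.6 CPM of *Cxcl12*, below the *Eomes* nuclei of the same library in each case. Their *Cxcr4* was 11.99, 5.92, 3.47 and 6.0 CPM, close to the range of the single gates except for the higher value of *Dnmt1* KO replicate 1. Nuclei with both the *Lhx6*/*Gad2* and the *Adarb2* gate (18 to 74 per library) contained 99.8, 63.5, 92.1 and 96.1 CPM of *Ackr3*. These values lay below the *Lhx6*/*Gad2* nuclei of the same library and far above the *Adarb2* nuclei. Their *Cxcr4* was 13.8, 14.9, 23.8 and 30.04 CPM.

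**Figure D3:**
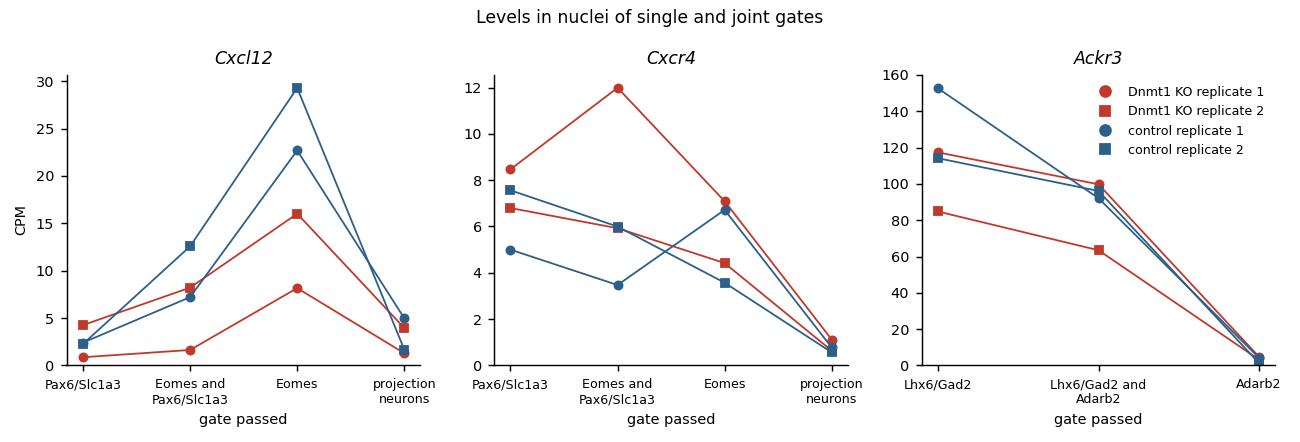
Levels in CPM in nuclei of single gates and in nuclei that passed a pair of gates, with 1 point per library and lines joining the points of a library. *Ackr3* of the *Lhx6*/*Gad2* and *Adarb2* pair (63.5 to 99.8 CPM) lies near the *Lhx6*/*Gad2* class, and *Cxcl12* of the *Eomes* and *Pax6*/*Slc1a3* pair lies below the *Eomes* class.

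For the genotypes, the targeted gene was examined first. *Dnmt1* (chromosome 9, 20817945 to 20871184, minus strand, 39 exons) was at 62.8 and 50.2 CPM in *Lhx6*/*Gad2* nuclei of the *Dnmt1* KO and at 61.0 and 51.6 CPM in the control libraries, so the genotypes overlapped (0.04, SE 0.16, adjusted p = 0.985). In nuclei with *Sst* and *Gad2*, the cells closest to the Cre driver, *Dnmt1* was at 76.1 and 46.1 CPM against 81.2 and 66.5 CPM (-0.35, adjusted p = 1.00). The counts are sums over the whole gene and not per exon, so they do not show the deleted part, and the labels could not be checked from them. Neither the reporter nor Cre has an entry in the gene table, and recombined nuclei were not identified.

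Between the genotypes, none of 21 tests of the 3 genes passed the threshold by edgeR. DESeq2 also called 0, and without adjustment 2 of them had p under 0.05. Of the 18 tests within a class, both *Dnmt1* KO libraries were below both controls in 2, in classes where 24.6% (*Lhx6*/*Gad2*) and 21.9% (*Eomes*) of all genes were, and above both in 1, in *Flt1* nuclei with 16.6% of all genes. Barcodes above 60000 transcripts, which were left out, held 1.35% and 4.37% of the transcripts of the *Dnmt1* KO against 19.2% and 29.4% of those of the control libraries, and the part of this filter was not tested. Over all genes, edgeR called 0% in every class. In *Lhx6*/*Gad2* nuclei, DESeq2 called 1 of 12479 genes, and 714 had an unadjusted p under 0.05 by edgeR. In *Eomes* nuclei, the numbers were 10 of 12273 and 721. With 2 libraries per genotype, an exact permutation test of a single value cannot fall below p = 0.33.

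The ligand in *Eomes* nuclei was among the values with both *Dnmt1* KO libraries on the same side. *Cxcl12* was at 8.16 and 16.0 CPM (38 and 87 transcripts) in the *Dnmt1* KO and at 22.7 and 29.3 CPM (98 and 123 transcripts) in the control libraries. The genotypes did not overlap, with means of 12.1 ± 5.56 against 26.0 ± 4.66 CPM (SD, n = 2), and 21.9% of all genes tested in *Eomes* nuclei had both *Dnmt1* KO libraries below both controls. The lowest value, 8.16 CPM, was close to that of the barcodes of at most 99 transcripts in its library (7.92 CPM, and 10.8, 8.19 and 5.23 CPM in the others), and is hardly read as expression. The log2 difference was -1.08 (SE 0.33, unadjusted p = 0.0178, adjusted p = 0.809 by edgeR). Fits that kept a single *Dnmt1* KO library gave -0.69 (replicate 1 left out) and -1.63 (replicate 2 left out). The latter value rests on the library with 8.16 CPM. With no low-count filter, the log2 difference of -1.05 passed the threshold (adjusted p = 0.0487 by edgeR). This setting called 0.987% of 253176 tests of all genes, summed over the fits. Under the remaining alternatives that kept all libraries, the adjusted p reached up to 1.00. The share of *Eomes* nuclei with a *Cxcl12* transcript was 7.52% and 13.4% against 16.1% and 28.5% (exact permutation p = 0.33). Drawn down to 1500 transcripts per nucleus, it was 1.21% and 2.55% against 3.97% and 4.52% (exact permutation p = 0.33, the smallest possible here). How many of all genes lack overlap in such shares was not computed.

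Some summed marker levels stood apart by genotype in the same nuclei, and most overlapped. The summed level of 8 projection neuron markers was 3020 to 3288 CPM in the *Dnmt1* KO and 3913 to 4256 CPM in the control libraries, and that of 10 fibroblast markers was 7.09 to 12.2 against 2.86 to 3.71 CPM. The 10 Cajal-Retzius markers, of the class with the highest ligand mean, were also higher in the *Dnmt1* KO, at 120 to 122 against 47.9 to 99.3 CPM. The 10 progenitor markers overlapped at 820 to 1020 against 807 to 877 CPM, as did the 10 radial glia markers at 263 to 678 against 462 to 499 CPM. The sums of the medial and caudal eminence, endothelial, mural and microglia markers overlapped as well. *Dnmt1*, which Cre does not delete in progenitors by design, was at 48.3 and 48.4 against 60.2 and 59.1 CPM (-0.28, adjusted p = 0.809). The part of these values in the difference of *Cxcl12* was not tested. Within nuclei of the *Eomes* and *Pax6*/*Slc1a3* pair of gates, *Cxcl12* overlapped between the genotypes, but lay below the barcodes of at most 99 transcripts in 3 of 4 libraries.

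The other senders did not pass the test either. In *Trp73*/*Reln* nuclei, the *Dnmt1* KO libraries at 66.1 and 38.0 CPM lay on either side of the control libraries at 46.8 and 59.6 CPM (-0.09, SE 0.31, adjusted p = 0.981). In *Flt1* nuclei, both *Dnmt1* KO libraries at 63.8 and 66.4 CPM lay above the control libraries at 57.1 and 9.70 CPM (0.95, SE 0.64, adjusted p = 1.00), while 16.6% of genes tested there did the same. Without control replicate 2, this value was 0.21. The 10 fibroblast markers in these nuclei summed to 94.5 to 148 against 55.3 to 71.7 CPM. The 6 mural markers summed to 287 to 1229 against 336 to 371 CPM. Caudal eminence, Cajal-Retzius and radial glia markers were also higher in both *Dnmt1* KO libraries, and microglia markers were lower. Of single genes tested there, 16.6% had both *Dnmt1* KO libraries above both controls and 16.6% below both. The remaining sums overlapped, as the mural sum did. The part of these values was not tested.

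**Figure D4:**
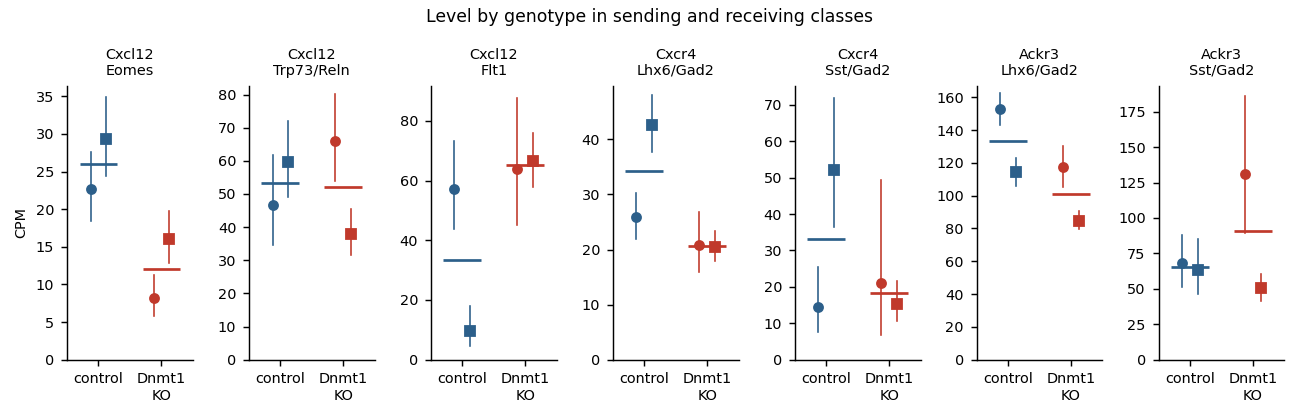
Levels in CPM of the gene and class pairs that the genotype comparison turns on, with 1 point per library, exact Poisson 95% intervals that cover counting error only, and a horizontal line at the mean of each genotype. *Cxcl12* in *Eomes* nuclei and *Cxcr4* in *Lhx6*/*Gad2* nuclei are lower in both *Dnmt1* KO libraries, and *Ackr3* in *Lhx6*/*Gad2* nuclei overlaps.

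The receptor *Cxcr4* in *Lhx6*/*Gad2* nuclei was at 20.8 and 20.5 CPM in the *Dnmt1* KO (61 and 223 transcripts) and at 25.9 and 42.7 CPM in the control libraries (155 and 267 transcripts). Both *Dnmt1* KO libraries were lower, as were those of 24.6% of all genes tested in these nuclei. The difference was -0.68 (SE 0.24, unadjusted p = 0.0268, adjusted p = 0.856), and without control replicate 2, the library of batch 2, it was -0.28. The share of nuclei with *Cxcr4* was 22.2% and 21.0% against 21.9% and 49.8%, so it overlapped (exact permutation p = 0.667), and after thinning it was 3.48% and 3.83% against 2.35% and 5.61%. The high control value thus came from a single library.

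*Ackr3* in the same nuclei was at 117 and 84.8 CPM (344 and 922 transcripts) against 153 and 114 CPM (914 and 714 transcripts). The means were 101 ± 23.0 and 133 ± 27.2 CPM (SD, n = 2), and the libraries overlapped (-0.36, SE 0.20, adjusted p = 0.858). The share of nuclei with *Ackr3* was 60.4% and 52.8% against 68.1% and 71.3% (exact permutation p = 0.33), and after thinning 12.6% and 15.3% against 18.8% and 16.2%. Both *Dnmt1* KO libraries had the lower shares. How many of all genes did so was computed for levels and not for shares. In all retained nuclei, *Ackr3* was at 7.90 and 8.11 CPM against 14.1 and 8.34 CPM (-0.50, SE 0.26, adjusted p = 0.660), and without control replicate 1 the difference was -0.10. A sum over all nuclei also holds the number of interneurons, and *Lhx6*/*Gad2* nuclei made up 4.08% and 7.14% of nuclei against 7.25% and 6.54%, which overlapped. In retained nuclei, 20.7% of genes had both *Dnmt1* KO libraries lower.

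Nuclei with *Sst* and *Gad2* were few, with 16 and 136 in the *Dnmt1* KO and 40 and 27 in the control libraries. Their *Cxcr4* was 21.1 and 15.4 CPM (5 and 33 transcripts) against 14.5 and 52.0 CPM (12 and 36 transcripts), and the genotypes overlapped (-0.91, SE 0.65, adjusted p = 1.00). Without control replicate 2, the value was 0.24 and so changed sign. Their *Ackr3* was 131 and 50.2 against 67.9 and 63.6 CPM (0.32, SE 0.47, adjusted p = 1.00). This difference spanned -0.34 to 1.06 when single libraries were left out, and it also changed sign with the filter on mapped reads. Among *Lhx6*/*Gad2* nuclei, those with *Sst* contained 143, 60.7, 77.7 and 75.8 CPM of *Ackr3* and those without *Sst* 115, 88.6, 160 and 118 CPM, so that *Sst* went with the lower level in 3 of 4 libraries. A nucleus without a detected *Sst* transcript may still belong to a cell in which Cre acted, so these gates do not separate recombined from other nuclei.

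**Figure D5:**
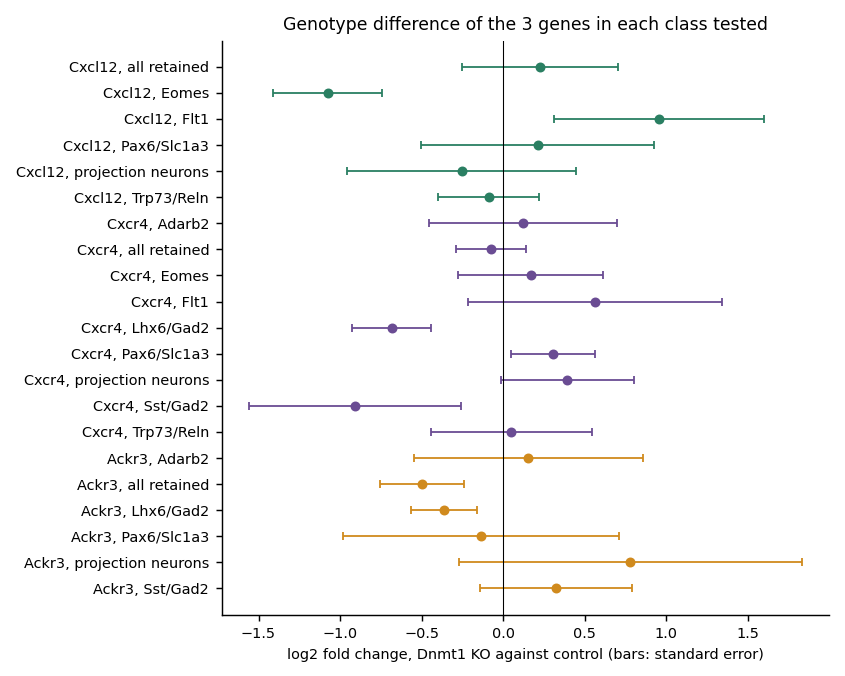
Fitted log2 differences of *Dnmt1* KO against control for each of the 3 genes by class, with the standard error as bars. *Cxcl12* in *Eomes* nuclei (-1.08) and in *Flt1* nuclei (0.95) point in opposite directions, and none of the 21 tests had an adjusted p under 0.05.

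Whether a genotype difference departed between classes was tested as an interaction. For *Cxcl12* in *Eomes* against *Pax6*/*Slc1a3* nuclei, the difference of differences was -1.20 (SE 0.45, unadjusted p = 0.0285, adjusted p = 1.00). For *Cxcr4* and *Ackr3* in *Lhx6*/*Gad2* nuclei against projection neurons, it was -1.003 (SE 0.46, unadjusted p = 0.0724, adjusted p = 1.00) and -0.85 (SE 0.79, adjusted p = 1.00). The value of *Ackr3* was called with no low-count filter, and spanned -1.91 to 0.70 when single libraries were left out. The difference of differences of *Cxcl12* in the same contrast was 1.92 (SE 0.72, unadjusted p = 0.0368, adjusted p = 1.00). The reference levels (projection neurons, and *Cxcl12* in *Pax6*/*Slc1a3* nuclei), and *Cxcl12* in *Lhx6*/*Gad2* nuclei, lay below the barcodes of at most 99 transcripts in every library. Neither contrast had a called gene by edgeR, with 562 of 15024 and 459 of 16281 genes at an unadjusted p under 0.05, and DESeq2 called 1 gene in each.

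The machinery downstream of the receptors was described by a list of 38 genes. Against projection neurons, 7 were called higher and 7 lower in *Lhx6*/*Gad2* nuclei, against 10.4% and 15.0% of all genes, and the median difference of the list was -0.04 beside -0.05 over all genes. Of the 4 with the highest level in these nuclei, *Elmo1*, an adaptor for Rac activation, was higher (1.92, SE 0.11), as was the G protein subunit *Gng2* (0.88, SE 0.12), while *Gnaq* (0.17, SE 0.08) and *Gnao1* (-0.16, SE 0.12) missed the threshold. *Dock2*, the exchange factor that binds ELMO1, was higher as well (3.34, SE 0.37) and was picked after its value was seen. In *Eomes* nuclei, 4 of the 38 genes were higher and 19 lower, against 19.4% and 22.4% of all genes, with a median of -0.36. *Gng2* (-1.46, SE 0.12) and *Elmo1* (-1.33, SE 0.11) were among the lower.

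Of 14 other ligands, proteases and binding partners, 12 were tested. In *Lhx6*/*Gad2* nuclei, 2 were higher and 3 lower than in projection neurons, against 10.4% and 15.0% of all genes. *Mmp2*, a protease that cleaves CXCL12, was higher (3.00, SE 0.28), and so was the heparan sulfate carrier *Sdc2* (0.75, SE 0.26). *Ext1*, which extends heparan sulfate chains, was lower (-0.54, SE 0.13), and *Hmgb1*, whose protein can bind CXCL12, did not pass (-0.08, SE 0.15). In *Flt1* nuclei, 5 were higher and 1 lower, against 27.2% and 30.1% of all genes.

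Of 17 transcription factors known from interneurons, progenitors or meninges, 12 were higher and none lower in *Lhx6*/*Gad2* nuclei by edgeR, against 10.4% and 15.0% of all genes, with a median of 3.32. The list holds the gate gene *Lhx6* and factors that define this lineage, so this count follows in part from the gate. *Sox6* (5.01, SE 0.40), *Satb1* (2.84, SE 0.18) and *Zeb2* (0.68, SE 0.14) were among them. Of the same list, 8 were higher in *Lhx6*/*Gad2* than in *Adarb2* nuclei, *Lhx6* included, against 4.42% of all genes, in the contrast in which both receptors were higher. In *Trp73*/*Reln* nuclei, *Zic2* (6.09, SE 0.29) and *Zic1* (4.92, SE 0.35), picked after their values were seen, were higher than in projection neurons.

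Of 33 other chemokines and chemokine receptors, 30 are in the gene table, and 9 had enough transcripts to be tested between classes. In *Lhx6*/*Gad2* nuclei, edgeR called 0 of them, also at an unadjusted p under 0.05, with *Ccl25* at -0.18 (SE 0.11), *Ccl27a* at 0.11 (SE 0.12), *Ccr9* at 0.02 (SE 0.27) and *Cx3cr1* at -0.04 (SE 0.26). Between the genotypes, edgeR called no gene of the 4 lists in any class, and DESeq2, summed over the fits, called 353 of 115965 tests of all genes (0.304%). Of the lists, these were *Stat3*, a transcription factor of cytokine signalling, in *Pax6*/*Slc1a3* (0.92, adjusted p = 0.0452) and in all retained nuclei (0.95, adjusted p = 0.0142), and, in all retained nuclei, *Zic1* (1.64, adjusted p = 0.00146), *Zic2* (1.09, adjusted p = 8.03e-05), *Sdc2* (0.72, adjusted p = 0.0210) and the atypical chemokine receptor *Ackr1* (0.99, adjusted p = 0.0170). Each was higher in the *Dnmt1* KO. In all retained nuclei, DESeq2 called 199 genes, and in *Pax6*/*Slc1a3* nuclei 61, where edgeR tested 21516 and 15320 genes. Of the lists, 38 signalling genes, 12 partners, 15 regulators and 12 chemokine genes were tested by edgeR in all retained nuclei. One of the *Dnmt1* KO libraries held 135 of the 137 *Col1a1*/*Col1a2* nuclei, whose part was not tested. In *Lhx6*/*Gad2* nuclei, 16 of 37 signalling genes tested were higher and 21 lower in the *Dnmt1* KO, with a median of -0.03 beside -0.01 over all genes. By edgeR, 4 of the 37 had an unadjusted p under 0.05, beside 714 of all 12479 genes. In *Eomes* nuclei, 19 of 36 were higher and 17 lower, 1 of them at an unadjusted p under 0.05, beside 721 of all 12273 genes.

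Finally, the genes whose pattern was most like each of the 3 were listed by Pearson's r of log2(CPM + 1) over 29 sums of class and library, among 15529 genes and with no test. The sums of a class share cells of like type, and the 4 libraries share their depth across classes. For *Cxcl12*, these were *Bmp5* (r = 0.84), *St3gal5* and *Kit* (0.83 each), and *Chm* and *Snx2* (0.81 each). For *Cxcr4*, they were *Dock11* (0.84), *Slc9a9* and *Abtb2* (0.83 each), *Cxxc4* (0.80) and *Mid2* (0.79). For *Ackr3*, they were *Gm31218* and *Cacng3* (0.90 each), *Gm2350* (0.87), *Gm28578* (0.86) and *Gm31621* (0.85). Among themselves, *Cxcr4* and *Ackr3* had r = 0.46, *Cxcl12* and *Cxcr4* 0.02, and *Cxcl12* and *Ackr3* -0.32.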

How the data were processed

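Nuclei of the medial neocortex were barcoded by split-pool indexing (Parse Evercode), and the authors deposited unfiltered transcript counts per barcode and gene from Trailmaker on GRCm39. The submitters' processing notes name R 4.4.1 and Seurat 5.0.1.9001. Whether intronic reads and strand were counted is not given in the sources used here. The 3 genes, the gates, the 4 gene lists and the marker lists were chosen with earlier results of these data known.

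Of 1127729 barcodes, those in the range of 1500 to 60000 transcripts were retained, and a mitochondrial limit of 10% removed 0 of them. The study states its range for reads, which was an alternative (30611 nuclei). No barcode was shared between libraries. Scrublet called 1513 doublets, which were kept, and leaving them out was an alternative. Larger barcodes were left out, which took 1.35% and 4.37% of all transcripts from the *Dnmt1* KO libraries and 19.2% and 29.4% from the controls. The libraries held 96455278 to 201141704 transcripts.

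Gates needed 1 transcript of each gene named, or 2 of *Eomes*, *Flt1* or *Adarb2* (the last with 1 of *Gad2*). Counts were summed per library and class and tested with edgeR 4.0.16 in R 4.3.3 (TMM, filterByExpr, quasi-likelihood, Benjamini-Hochberg over all genes), with library as a block between classes. A genotype fit needed 10 nuclei in each library. DESeq2 1.42.0, other normalization, filters and gates, batch as a term, the replicate number as a block and leaving out each library were alternatives. On simulated counts with 4-fold changes in 200 genes per fit, 99.5% to 100% were recovered, with 5 to 16 false calls. Smaller changes, such as the genotype differences of the 3 genes, were not simulated. Marker ratios had 5 CPM added to both sides. For thinned shares, 1500 transcripts were drawn per nucleus. Intervals and floors (3 counts) cover counting error only. The genes named are the 3 genes, *Dnmt1*, from each list the 4 with the highest level in *Lhx6*/*Gad2* nuclei and any called between genotypes, and the 5 most like each of the 3. Exceptions, such as *Dock2*, are named as picked after their values were seen. Genes used in a gate or a marker list, and genes under 200 transcripts, were left out of the last. Of 56884 identifiers, 56323 matched GENCODE vM39, which gave the coordinates.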

Additional observations from a re-analysis of the deposited data

Results flagged for a closer look

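The genotype difference of *Cxcl12* had opposite directions in a pair of sender classes, with every *Dnmt1* KO library on one side of the controls in each. In *Eomes* nuclei, the log2 difference was -1.08 (SE 0.33), and both *Dnmt1* KO libraries (8.16 and 16.0 CPM) were below both control libraries (22.7 and 29.3 CPM). The same held for 21.9% of all genes tested there. The value of 8.16 CPM was close to the 7.92 CPM in the barcodes of at most 99 transcripts of its library. In *Flt1* nuclei, the log2 difference was 0.95 (SE 0.64), and both *Dnmt1* KO libraries (63.8 and 66.4 CPM) were above both controls (57.1 and 9.70 CPM). The same held for 16.6% of genes tested there. The share of genes with such opposite directions was not computed. A test of the difference between these classes, added after the values were seen, gave -2.19 (SE 0.76, unadjusted p = 0.0203, adjusted p = 1.00 by edgeR over 13756 genes, of which it called 0). The pair was picked by the same values, so this test is no evidence for it. The *Flt1* value fell to 0.21 without control replicate 2, whose 10 transcripts came from 4 nuclei, and rose to 2.71 without control replicate 1.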

How the results depend on the processing

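Among 324 recomputed class contrasts, 306 kept their direction and their side of the threshold, and among 291 recomputed genotype differences 246 did. With 2 libraries per genotype, the latter rest on single libraries, and the deepest is the only one of its batch. Where a genotype keeps 1 library, that library is assumed to vary like the others. The cause of the changes below was not tested.

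The labels number the replicates, but samples of the same number did not deviate together (correlations of -0.0581 to 0.0369). The difference between the controls also holds batch and depth, so this does not exclude a pairing. The main fits used none. With the number as a block, *Cxcl12* in *Eomes* nuclei was -1.13, and the paired fit called 0 genes as before. The block turned *Cxcr4* in *Adarb2* (-0.13) and *Trp73*/*Reln* nuclei (-0.0421) and *Cxcl12* in *Pax6*/*Slc1a3* nuclei (-0.0688).

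Genes called between genotypes, summed over all fits, rose from 0 to 353 with DESeq2, to 2498 of 253176 tests (0.987%) with no low-count filter, to 58 with batch as a term and to 46 to 850 when a library was left out. With no low-count filter, the calls included 6 of 378 tests of signalling genes (1.59%), 8 of 156 of regulators (5.13%), 1 of 160 of chemokine genes (0.625%) and 1 test of the 3 genes, *Cxcl12* in *Eomes* nuclei (-1.05, adjusted p = 0.0487). DESeq2 made 2 calls of a signalling gene, 1 of a partner, 2 of regulators and 1 of a chemokine gene. Calls of list genes and of the 3 genes without a library are not counted for the reason given above.

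With batch as a term, signs turned for *Ackr3* in *Adarb2* (-0.24), *Cxcr4* in *Eomes* (-0.21), *Cxcl12* in *Trp73*/*Reln* (0.13), *Cxcr4* in *Sst*/*Gad2* (0.23) and *Cxcr4* in all retained nuclei (0.0706). With the filter on mapped reads, they turned for *Cxcr4* in *Eomes* (-0.0698), *Cxcl12* in *Trp73*/*Reln* (0.33, with a share 8.05 points higher), *Cxcl12* in *Pax6*/*Slc1a3* (-0.0568) and *Ackr3* in *Sst*/*Gad2* nuclei (-0.10). With nuclei of several gates kept, they turned for *Cxcr4* in *Adarb2* (-0.21) and *Trp73*/*Reln* (-0.27) and *Cxcl12* in *Pax6*/*Slc1a3* nuclei (-0.44). Stricter gates turned *Cxcr4* in *Trp73*/*Reln* (-0.26), *Ackr3* in *Pax6*/*Slc1a3* (0.0214) and the interaction of *Cxcr4* in *Eomes* against *Pax6*/*Slc1a3* nuclei (0.13). Without doublets, *Ackr3* in *Adarb2* (-0.69) and *Cxcl12* in *Pax6*/*Slc1a3* nuclei (-0.18) turned, and with *Adarb2* alone as a gate, *Cxcr4* in *Adarb2* (-0.20) and *Trp73*/*Reln* nuclei (-0.0461).

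When single libraries were left out, the genotype difference of *Cxcl12* spanned -1.63 to -0.69 in *Eomes*, -0.51 to 0.29 in *Trp73*/*Reln* (its share -12.6 to 4.22 points), -1.41 to 0.91 in *Pax6*/*Slc1a3*, -1.31 to 0.69 in projection neurons and -0.66 to 0.76 in all retained nuclei. That of *Cxcr4* spanned -0.54 to 0.90 in *Adarb2*, -0.21 to 0.69 in *Eomes*, -0.54 to 1.58 in *Flt1*, -1.55 to 0.24 in *Sst*/*Gad2*, -0.67 to 0.63 in *Trp73*/*Reln*, -0.0351 to 0.78 in projection neurons and -0.30 to 0.15 in all retained nuclei. That of *Ackr3* spanned -0.23 to 0.0623 in *Adarb2*, -1.16 to 1.47 in *Pax6*/*Slc1a3*, -0.34 to 1.06 in *Sst*/*Gad2* and -1.38 to 1.72 in projection neurons. The interactions spanned -1.91 to 0.70 (*Ackr3*, *Lhx6*/*Gad2* against projection neurons) and -0.83 to 0.61 (*Cxcr4*, *Eomes* against *Pax6*/*Slc1a3*). The former was called with no low-count filter (-0.84, adjusted p = 0.0263).

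Of the class contrasts, *Cxcl12* in *Lhx6*/*Gad2* against projection neurons passed the threshold with DESeq2 (-1.85), no low-count filter (-1.70), no doublets (-2.94) and the filter on mapped reads (-1.98), and against *Adarb2* nuclei with *Adarb2* alone (-2.27). *Ackr3* in *Adarb2* nuclei against projection neurons passed with no low-count filter (1.07) and with nuclei of several gates kept (3.67), a setting under which *Ackr3* also rose in *Eomes* (1.21) and *Pax6*/*Slc1a3* nuclei (1.11). The same setting turned *Cxcl12* in *Adarb2* (0.57; 0.72 with *Adarb2* alone) and *Pax6*/*Slc1a3* nuclei (0.22), and *Cxcr4* (0.0258) and *Ackr3* (0.11) in *Eomes* against *Pax6*/*Slc1a3* nuclei. Without single libraries, *Ackr3* spanned 0.73 to 1.67 in *Adarb2* and -0.84 to 0.78 in *Pax6*/*Slc1a3*, *Cxcl12* -1.02 to 0.32 in *Adarb2*, and *Cxcr4* in *Lhx6*/*Gad2* against *Adarb2* nuclei 0.96 to 1.58.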

Other observations

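Some transcripts of the 3 genes lay in nuclei that no gate assigned, and these nuclei were described by the genes that went with them. The genes below were chosen after their values were seen, their ratios were computed after adding 10 CPM to both sides, and no test was made. Ungated nuclei with *Ackr3* contained 18.3 times the *Erbb4* and 17.5 times the *Nxph1* of ungated nuclei without it, in 4 of 4 libraries. Both are genes of the interneuron marker list, but *Bnc2* (9.63 times, in 3 of 4 libraries) and the fibroblast marker *Ranbp3l* (7.10 times, in 2 of 4) were higher as well. Over all ungated nuclei, *Ackr3* lay below its level in the barcodes of at most 99 transcripts in each library.

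Ungated nuclei with *Cxcl12* contained more *Cped1* (17.4 times), *Colec12* (14.3 times) and *Ranbp3l* (13.2 times), each in 2 of 4 libraries. Over all ungated nuclei, *Cxcl12* lay below its level in the same barcodes in 3 of 4 libraries.

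*Eomes* nuclei with *Cxcl12* contained more *Cntn5* (2.74 times), *Negr1* (2.41 times) and *Cdh8* (2.17 times), which encode adhesion molecules of neurons, in 4 of 4 libraries, and were deeper in each library, with medians of 10033 to 16369 against 9217 to 14876 transcripts. *Pax6*/*Slc1a3* nuclei with *Cxcr4* contained more *Sned1* (3.04 times), *Has2* (2.97 times), *Thsd7b* (2.86 times) and *Rnf43* (2.79 times), in 4 of 4 libraries, and were deeper in each library, with medians of 14698.5 to 24214 against 11004 to 17524 transcripts.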
